A study of Mus musculus with 121 samples.

Results

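The loops described here are the chromatin loops of asynchronous cells that hold neither of the factor pairs most often found at loop anchors. A loop was taken when it did not have a YY1 peak at both anchors and did not have CTCF together with the cohesin subunit RAD21 at both anchors, with an overlap of at least 1 bp counted as holding a peak. The untreated peak lists of YY1, CTCF and RAD21 chose the loops, so their values at these anchors are given as a description and without a test. Of 12738 loops, 3974 met the rule (31.2%, Wilson 95% interval 30.4 to 32.0), and they are called unpaired loops below. The other loops fall into 3 classes. YY1-paired loops had YY1 at both anchors without the CTCF and RAD21 pair (1507 loops), doubly paired loops had both (1617), and CTCF-cohesin loops had CTCF and RAD21 at both anchors without paired YY1 (5640).

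A chromatin loop is a pair of distant sites that touch more often than their surroundings. Cohesin is a ring-shaped complex that extrudes DNA loops, and CTCF is the DNA-binding protein at which the extruding ring most often stops, so that CTCF and cohesin at both ends is the usual picture of a structural loop. YY1 is a zinc-finger transcription factor found at promoters and enhancers, and LDB1 is the dimerising cofactor that GATA1 and TAL1 use in erythroid cells to hold enhancers to promoters. H3K27ac, acetylation of lysine 27 of histone H3, marks active promoters and enhancers.

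The cells are G1E-ER4, erythroid progenitors made from mouse embryonic stem cells, which lack functional GATA1 and carry a GATA1 that hormone activates. Apart from 1 set of YY1 peaks named below, all samples are of a subline called YY1-AID, in which YY1 carries a tag for breakdown on auxin, so that untreated groups have the tagged protein too. The groups were untreated asynchronous cells, asynchronous cells given auxin (4 h for YY1, CTCF, RAD21, LDB1 and H3K27ac), and cells in mid-G1 with and without auxin. YY1 peaks that emerge at single stages of mitotic exit came from a G1E-ER4 MD-mCherry subline released from 7 h of nocodazole, which carries no degron in its labels. ChIP-seq had 2 libraries per group, or 3 for YY1 with the main antibody (2 with a second), and Micro-C, a conformation assay based on micrococcal nuclease, had 5 libraries per treatment for asynchronous cells and 4 for mid-G1.

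Every list is 1 per condition and gives positions in the mouse build mm9 without a score. There is therefore no replicate error for any share, the intervals cover counting error only, and the sequencing depth behind a list is unknown. Untreated cells had 41163 YY1, 59085 CTCF, 39745 RAD21, 17914 LDB1 and 21962 H3K27ac peaks. The loop, boundary and domain lists were merged over untreated and auxin samples, so that loop strength with and without YY1 is not analysed here. Loops are not replicates of a condition, since neighbouring loops share anchors and all come from the same libraries. No gene or sequence is given for an anchor, because the gene positions at hand are of another build.

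Most unpaired loops held a factor of the rule at 1 anchor. YY1 lay at 1 anchor of 1391 loops (35.0%) and at neither of the other 2583. CTCF with RAD21 lay at 1 anchor of 2278 loops (57.3%). CTCF, counted on its own, lay at both anchors of 548 loops and at 1 anchor of 2060, and RAD21 at both of 211 and at 1 of 2165. No loop had YY1, or CTCF together with RAD21, at both anchors, as the rule sets, but CTCF or RAD21 singly was paired in these 548 and 211 loops. In all, 1361 loops (34.2%) had neither YY1 nor the CTCF and RAD21 pair at any anchor. A further 1222 had the pair at 1 anchor and no YY1, 335 had YY1 at 1 anchor and no pair, and 1056 had each at 1 anchor. In that last set YY1 and the pair shared the same anchor in 728 loops and sat at opposite anchors in 328.

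**Figure D1:**
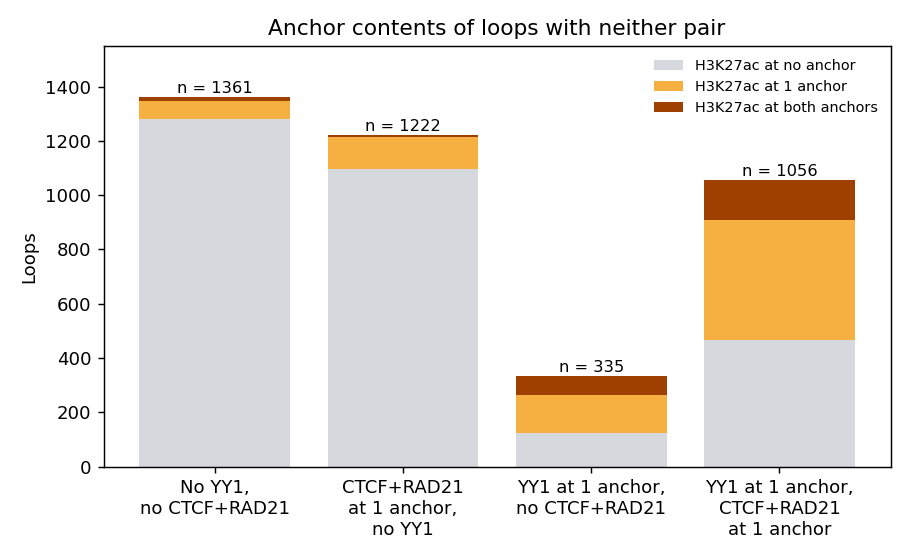
Number of unpaired loops (vertical axis) by what their anchors held in untreated asynchronous cells, each bar divided by how many anchors held an H3K27ac peak. Acetylated anchors lie mostly in the bars with YY1 at 1 anchor, where 70 of 335 and 147 of 1056 loops were acetylated at both ends, against 13 of 1361 and 8 of 1222 in the bars without YY1.

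The loops with CTCF and RAD21 at 1 end were mostly bare of both at the other. Of the 2278 opposite anchors, 69.0% held neither CTCF nor RAD21 (67.1 to 70.9), 22.2% held CTCF without RAD21, and 8.78% held RAD21 without CTCF. YY1 was at 14.4% of these opposite anchors and H3K27ac at 15.9%, and 54.9% had no peak of any of the 5 factors.

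Anchors with YY1 differed in their contents from the ends they contacted, in part because of the rule. The rule leaves no YY1 at the opposite anchor. Where the YY1 anchor also held CTCF with RAD21 (728 loops), it leaves no such pair opposite either. Among the 1391 loops with YY1 at 1 anchor, that anchor held H3K27ac in 54.3% (51.7 to 57.0) and the opposite anchor in 18.8% (16.8 to 20.9). LDB1 was at 25.1% of the YY1 anchors and 9.42% of the opposite anchors, and CTCF at 63.1% and 40.0%. Of the same YY1 anchors, 26.2% overlapped a YY1 peak that emerges in early G1, 15.6% one that emerges in anaphase or telophase and 7.19% one that emerges in mid-G1. Peaks of prometaphase and late G1 were at 2.01% and 0.719%, and 55.7% overlapped no peak of a stage list. A YY1 peak was still listed after auxin at 9.78% of these anchors. A second YY1 antibody, whose list is shorter (9164 peaks), marked 26.96% of them.

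Many unpaired loops missed the rule for pairing by a short distance. For each loop, the distance was taken by which the anchors would have to grow for YY1, or CTCF with RAD21, to lie at both. Its median was 4.11 kb, its smallest value 3 bp, and it was within 1 kb for 1118 loops (28.1%) and within 5 kb for 2103 (52.9%). At the other end, 691 loops (17.4%) would have needed more than 50 kb. Just outside the rule, 890 of the 8764 paired loops (10.2%) would have been counted as unpaired had their anchors been 400 bp narrower on each side. The class thus spans near misses and loops far from any paired sites.

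Acetylation at both ends set the unpaired loops apart from loops with paired YY1, and less clearly from CTCF-cohesin loops. H3K27ac lay at both anchors of 238 unpaired loops (5.99%, 5.29 to 6.77), at 1 anchor of 769 and at none of 2967. The share was 84.0% in YY1-paired loops and 54.2% in doubly paired loops, and the unpaired share was lower on 20 of 20 chromosomes in either contrast. YY1 and H3K27ac often occupy the same anchor, as the values above show, so these contrasts partly restate the rule and are given as differences without a p: −78.0 points (−79.9 to −75.9) and −48.2 points (−50.7 to −45.6). CTCF-cohesin loops had H3K27ac at both anchors in 3.92%, below the unpaired loops (unpaired minus CTCF-cohesin 2.07 points, 1.19 to 2.99, Fisher's exact test across loops, two-sided, adjusted p = 8.57e-06, higher on 15 of 20 chromosomes). Loops of both classes may have YY1 at 1 anchor. Most of the 238 unpaired loops did, 70 without and 147 with the CTCF and RAD21 pair at 1 anchor, and the part YY1 has in this difference was not tested.

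The size and direction of that difference moved with the rule. With anchors widened by 5 kb on each side it turned to −0.9995 points (adjusted exact p = 0.116), and with at least 50% of a peak inside the anchor it was 0.86 points. With the second YY1 antibody in the rule it was 8.63 points (20.8% of unpaired against 12.2% of CTCF-cohesin loops). Its shorter list left 4997 loops unpaired, among them loops with YY1 at both anchors in the main list. Among unpaired loops without YY1 and without the pair at any anchor, 0.955% were acetylated at both ends. No p is given for that set, since it leaves out anchors with YY1 while CTCF-cohesin loops may have YY1 at 1 anchor.

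LDB1, the enhancer cofactor, was scarce in unpaired loops. It lay at both anchors of 58 loops (1.46%, 1.13 to 1.88) and at 1 anchor or more of 563 (14.2%). YY1-paired and doubly paired loops had LDB1 at both anchors in 18.5% and 13.9%, and at 1 anchor or more in 59.3% and 52.4%. LDB1 was more common at YY1 anchors than opposite them, as given above, so these 2 contrasts partly restate the rule. CTCF-cohesin loops had LDB1 at both in 0.993%, which did not pass the test against unpaired loops (difference 0.47 points, 0.0254 to 0.946 before adjustment, adjusted exact p = 0.0515). That call depended on the setting: the adjusted exact p was 0.0426 with at least 50% of a peak inside the anchor and 4.68e-07 with the second antibody, both with unpaired loops higher. Loops with paired YY1 in the main list, which had more LDB1, partly count as unpaired or CTCF-cohesin with the second antibody. At 1 anchor or more they had it in 17.1%, above the unpaired loops (unpaired minus CTCF-cohesin −2.96 points, −4.41 to −1.49, adjusted exact p = 0.000162). This direction turned when the loops with no peak at all were left out (unpaired loops 19.3% against 17.1%, given without a p since those loops hold no LDB1 by definition) and when the second YY1 antibody chose the loops (24.2% against 23.6%, adjusted exact p = 0.473).

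**Figure D2:**
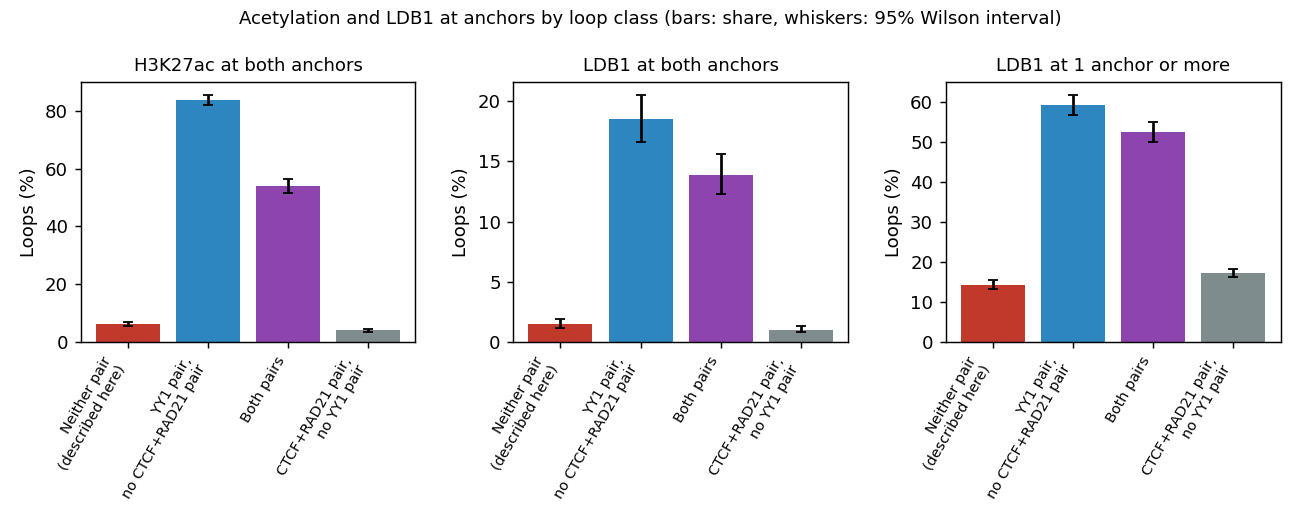
Share of loops (percent, vertical axes that differ between panels and start at 0) with H3K27ac at both anchors, LDB1 at both anchors and LDB1 at 1 anchor or more, for the 4 loop classes, with 95% Wilson intervals that cover counting error. Unpaired loops (red) and CTCF-cohesin loops (grey) lie low and close together, at 5.99% and 3.92% for H3K27ac at both anchors, while both classes with paired YY1 lie above 50% there.

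Acetylation and LDB1 coincided at the anchors of a small set. LDB1 at both anchors was found with H3K27ac at both in 38 of the 58 loops. Another 108 loops had H3K27ac at both anchors and no LDB1. The 38 loops had a median span of 157.5 kb and the 108 a median of 130 kb. In the mid-G1 list, described next, 13.2% of the 38 recurred (5.75 to 27.3) and 27.8% of the 108 (20.2 to 36.9), and these intervals overlap.

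Unpaired loops recurred less in mid-G1 than loops with paired CTCF and RAD21. A counterpart was a loop of the mid-G1 list whose anchors overlap both anchors. It was found for 1247 unpaired loops (31.4%, 30.0 to 32.8), 50.03% of doubly paired loops and 55.4% of CTCF-cohesin loops. The differences were −18.7 points (−21.5 to −15.8, Fisher's exact test, adjusted p = 4.27e-38) and −24.0 points (−25.9 to −22.0, adjusted exact p = 1.04e-120), and both were negative on 20 of 20 chromosomes. With anchors widened by 5 kb they were smaller, −2.92 points (adjusted exact p = 0.0489) and −8.45 points (adjusted exact p = 5.01e-10). Against YY1-paired loops (31.8%) no difference passed the test (−0.41 points, −3.19 to 2.32, adjusted exact p = 0.851), and unpaired loops were lower on 12 of 20 chromosomes.

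The resolution at which a loop was called moved with its recurrence. Unpaired loops with 5 kb anchors (2535) recurred in 39.2% and those with 10 kb anchors (1439) in 17.6%, while CTCF-cohesin loops recurred in 62.5% and 40.4%. Within either width unpaired loops were below both classes with paired CTCF and RAD21. The comparison with YY1-paired loops split by width: 39.2% against 37.8% with 5 kb anchors (adjusted exact p = 0.544), and 17.6% against 23.7% with 10 kb anchors (−6.14 points, adjusted exact p = 0.00235). With identical anchors required, 1073 unpaired loops recurred, and with midpoints allowed to lie 20 kb apart, 2703 did (68.0%).

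**Figure D3:**
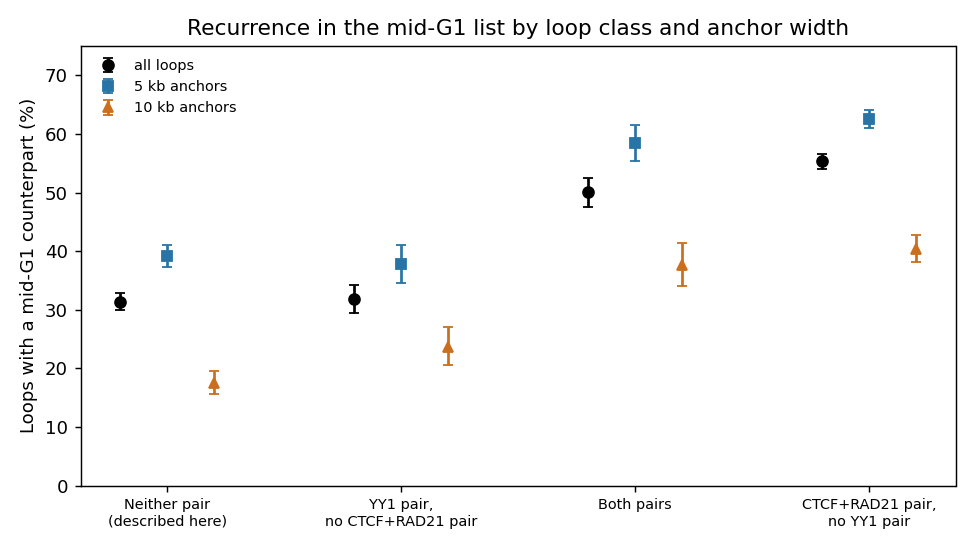
Share of loops with a counterpart in the mid-G1 list (percent) for the 4 classes, for all loops and separately for loops with 5 kb and 10 kb anchors, with 95% Wilson intervals that cover counting error. Unpaired and YY1-paired loops lie near 31% over all widths, below the 50.03% and 55.4% of the classes with paired CTCF and RAD21, and loops with 10 kb anchors are lowest in every class.

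Loops without a counterpart often kept an anchor in use. Of 2727 such unpaired loops, 17.5% had both anchors at anchors of other mid-G1 loops, 52.0% had 1 and 30.6% had neither. The last share was lower in every other class: 20.4% for YY1-paired, 7.67% for doubly paired and 7.31% for CTCF-cohesin loops without a counterpart. Applied to the mid-G1 list with the same untreated asynchronous peaks, the rule took 4059 of 14155 loops (28.7%), so unpaired loops made up a similar part of either list.

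Within the class, recurrence was higher where the missing peaks lay more than 20 kb away. Loops that missed a pair by up to 5 kb recurred in 23.3% (21.5 to 25.1), and those that missed it by 5 to 20 kb in 27.2% (24.2 to 30.5). The share was 47.5% at 20 to 50 kb, 58.6% at 50 to 100 kb (52.2 to 64.6) and 47.6% beyond 100 kb. H3K27ac at 1 anchor or more went the other way, from 35.0% of the loops in the nearest range to 1.99% in the farthest. These ranges were set after the values were seen and are a description.

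**Figure D4:**
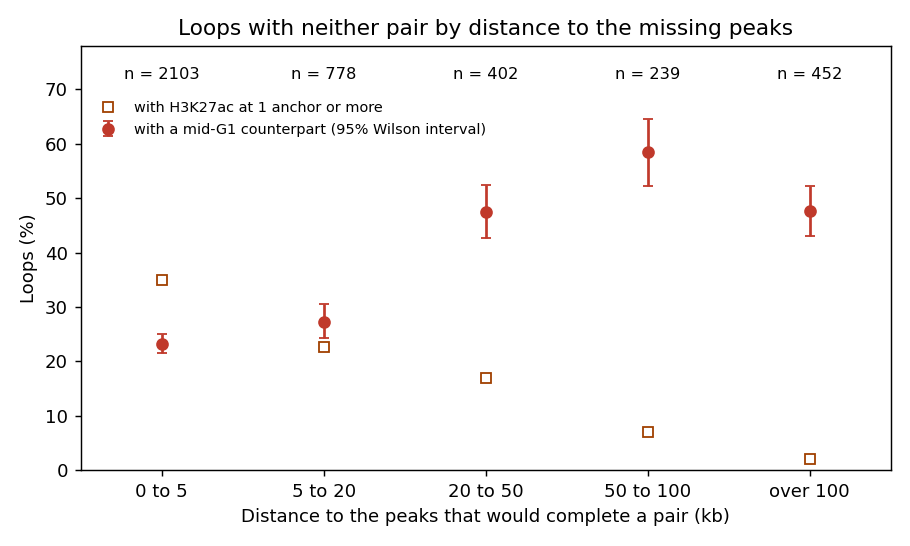
Unpaired loops grouped by the distance (kb) to the peaks that would complete a pair at both anchors, with the share (percent) that recurs in mid-G1 (circles, 95% Wilson intervals for counting error) and the share with H3K27ac at 1 anchor or more (squares). Recurrence lies at 23.3% and 27.2% in the 2 nearest ranges and between 47.5% and 58.6% in the farther ones, while acetylation falls throughout.

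Recurrence also differed by what the anchors held. In 1051 unpaired loops (26.4%) neither anchor held a peak of YY1, CTCF, RAD21, LDB1 or H3K27ac, and 47.4% of these peak-free loops recurred in mid-G1 (44.4 to 50.4), or 56.4% of those with 5 kb anchors and 24.9% of those with 10 kb anchors. Of the unpaired loops with at least 1 peak, 25.6% recurred (24.1 to 27.2). Of the 1222 loops with CTCF and RAD21 at 1 anchor and no YY1, 23.2% recurred (21.0 to 25.7), and of the 335 with YY1 at 1 anchor and no pair, 30.4% (25.8 to 35.6). With peak-free loops left out, the remaining unpaired loops differed from YY1-paired loops by −6.16 points (25.6% against 31.8%), and the loops that lack YY1 and the pair at any anchor differed by 12.2 points (43.9% against 31.8%). Both sets were compared after their values were known, so they are given without a p. The second difference was not seen with 10 kb anchors, where 23.0% of these loops (97 of 422) and 23.7% of YY1-paired loops recurred.

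Peak-free loops lay in 484 windows of 1 Mb, and 21.3% of them (224) were gathered in 14 windows with at least 10 each. Most of the 14 held few peaks, but chr17:36000001-37000000, with 14 peak-free loops, held 30 YY1, 45 CTCF, 27 RAD21, 10 LDB1 and 20 H3K27ac peaks. The densest, chr12:116000001-117000000 (mm9), held 42 peak-free loops among its 54 loops, all unpaired, and 21 of the 42 recurred in mid-G1. That window contained 3 YY1, 7 CTCF and 2 RAD21 peaks and no LDB1 or H3K27ac peak. On the same chromosome chr12:105000001-106000000 held 26 peak-free loops, of which 7 recurred. On chromosome 4 the adjoining windows from 145000001 to 147000000 held 18 and 17, of which 10 and 12 recurred. In chr1:85000001-86000000, 12 peak-free loops lay in a window with no peak of any of the 5 lists, and 5 of them recurred.

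Chromosomes 12, 7, 4 and 17 together held 42.6% of the peak-free loops, against 24.6% of the other unpaired loops and 22.4% of all paired loops. The share of all loops that were unpaired ran accordingly from 23.7% on chromosome 11 to 43.8% on chromosome 12. The windows around peak-free loops had a median of 19 CTCF peaks per Mb, against 45 for other unpaired loops and 46 for CTCF-cohesin loops, and 28.4% of peak-free loops lay in windows with fewer than 10 CTCF peaks, against 3.22% of other unpaired loops. How well reads can be mapped in these windows was not tested.

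**Figure D5:**
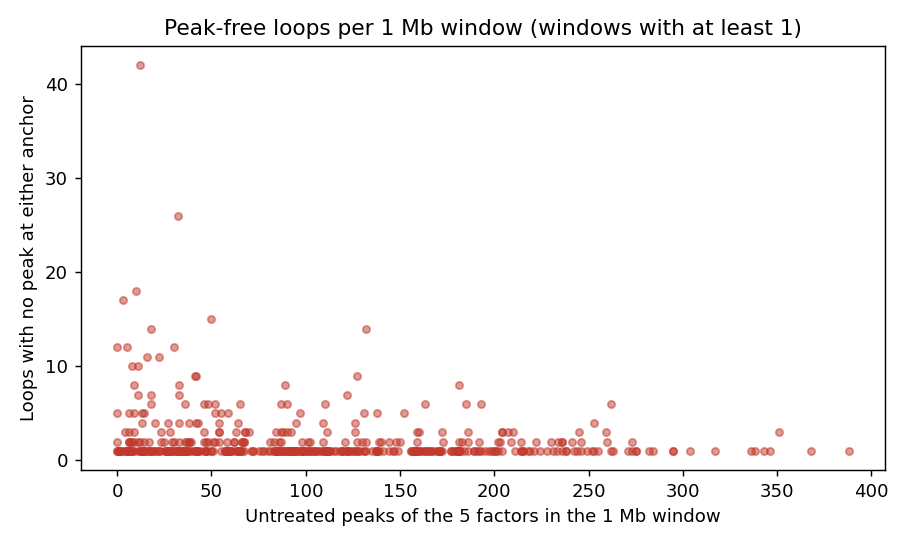
Each point is a 1 Mb window with at least 1 loop whose anchors hold no peak: the horizontal axis counts the untreated peaks of YY1, CTCF, RAD21, LDB1 and H3K27ac in the window, and the vertical axis counts its peak-free loops. The highest point, with 42 peak-free loops, lies at 12 peaks, and most windows hold 1 or a few peak-free loops over a wide range of peak numbers.

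Peak density moved with recurrence in unpaired loops, and in YY1-paired loops too. Of those in windows with fewer than 10 CTCF peaks per Mb, 51.9% recurred in mid-G1 (47.0 to 56.8), and of those with 30 or more, 26.6% (24.9 to 28.4). CTCF-cohesin loops gave 59.4% (49.7 to 68.5) and 54.7% (53.2 to 56.2) in the same ranges. YY1-paired loops gave 43.3% (13 of 30 loops, 27.4 to 60.8) and 27.9% (25.2 to 30.7). Both of these classes went in the same direction, and within each the intervals of these outer ranges overlap. In between, YY1-paired loops gave 38.9% (32.3 to 46.0) at 10 to 20 CTCF peaks and 39.6% (34.1 to 45.4) at 20 to 30. Both of these intervals lie above that of YY1-paired loops at 30 or more. Unpaired loops gave 35.9% and 34.0% there. In the 14 dense windows 55.8% of peak-free loops recurred, and elsewhere 45.1% (41.7 to 48.5). Without these windows, unpaired loops as a whole recurred in 29.7%.

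Unpaired loops covered the same range of lengths as the others, with a higher share of very long ones. Their span, from anchor midpoint to midpoint, ran from 45 to 1995 kb with a median of 175 kb (quartiles 95 and 325 kb). The median was 150 kb in YY1-paired, 160 kb in doubly paired and 190 kb in CTCF-cohesin loops. In a permutation test of mean log10 span over 100000 relabellings, two-sided, unpaired loops were longer than YY1-paired (adjusted p = 3.82e-05) and doubly paired loops (adjusted p = 2.10e-05, from the smallest p that so many relabellings can give), and shorter than CTCF-cohesin loops (adjusted p = 0.0224). By the same permutation test, the last direction turned with anchors set to 10 kb (adjusted p = 1.31e-05) or widened by 5 kb (adjusted p = 0.00056), and for loops without YY1 or the pair at any anchor (adjusted p = 0.0016). Restricted to 10 kb anchors, the differences from YY1-paired and doubly paired loops turned and did not pass (adjusted permutation p = 0.227 and 0.977). The first also did not pass with the second antibody (adjusted permutation p = 0.153), nor the second for spans of 100 to 500 kb (0.254). Spans over 1000 kb made up 5.13% of unpaired loops, against 3.72%, 2.10% and 2.00% of the other classes in the same order.

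Long unpaired loops recurred more than short ones. The share with a mid-G1 counterpart was 32.2% under 100 kb, 29.8% from 100 to 200 kb, 26.9% from 200 to 500 kb, 37.4% from 500 to 1000 kb and 52.2% above that (45.4 to 58.9). CTCF-cohesin loops ran from 57.7% in the shortest range to 52.1% in the longest, and YY1-paired loops from 36.3% to 19.6%. These values are a description, and acetylation moved with span too, since 31.9% of unpaired loops under 100 kb and 12.6% of those over 1000 kb had H3K27ac at 1 anchor or more.

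Individual loops show the range. The longest lay on chromosome 4 between chr4:32060001-32065000 and chr4:34055001-34060000 (1995 kb), with no peak at either anchor, 5 boundaries of the insulation map between them and a counterpart in mid-G1. The next, between chr7:32390001-32400000 and chr7:34380001-34390000 (1990 kb), also held no peak and had no boundary inside and no counterpart. Among the shortest, at 45 kb, the loop from chr1:37550001-37555000 to chr1:37595001-37600000 joined an anchor without a peak to one with YY1, CTCF and RAD21, and did not recur. The loop from chr1:55140001-55145000 to chr1:55185001-55190000 joined CTCF and H3K27ac to YY1, LDB1 and H3K27ac, and recurred.

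Only 5 unpaired loops held both LDB1 and H3K27ac at both anchors and recurred in mid-G1. The shortest (80 kb) ran from chr12:78110001-78115000, with CTCF and RAD21 beside the shared marks, to chr12:78190001-78195000, with YY1 and RAD21. The others spanned 100 kb (chr7:97170001-97180000 to chr7:97270001-97280000), 115 kb (chr16:29945001-29950000 to chr16:30060001-30065000), 150 kb (chr4:117600001-117605000 to chr4:117750001-117755000) and, on chromosome 18, 220 kb. YY1 was present at exactly 1 anchor of each of the 5.

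Many unpaired loops stood alone in the loop list, which is given as a description. Of them, 42.3% shared neither anchor with another loop, against 27.1% of YY1-paired, 12.2% of doubly paired and 14.0% of CTCF-cohesin loops, and among peak-free loops the share was 67.3%. An anchor in common with a CTCF-cohesin loop was found for 30.6% of unpaired and 2.19% of peak-free loops. Every paired loop has YY1, or CTCF with RAD21, at both anchors, and a peak-free anchor has neither. The 2.19% and the 67.3% thus partly follow from the definition. So do the 42.3% and the 30.6%, since 1361 unpaired loops have neither YY1 nor the pair at any anchor. The class had 7410 distinct anchors, of which 6923 served a single unpaired loop, and the most used served 4. These were chr4:146825001-146830000, with no peak, loops of 350 to 1825 kb and all 4 recurring in mid-G1, chr7:19380001-19385000, with CTCF and 3 of 4 recurring, and chr9:98965001-98970000, with CTCF and none recurring.

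Domain edges were rare at both ends. Boundaries of the asynchronous insulation map lay at both anchors of 17 unpaired loops (0.428%), against 1.18% of doubly paired (Fisher's exact test, adjusted p = 0.00406) and 1.06% of CTCF-cohesin loops (adjusted exact p = 0.000711). YY1-paired loops had 0.398%, which did not pass the test (difference −0.465 to 0.364 points, adjusted exact p = 1). A domain corner, where the anchors match both ends of a called domain, was found for 12 unpaired loops (0.302%), below doubly paired (0.742%, adjusted exact p = 0.048) and CTCF-cohesin loops (0.709%, adjusted exact p = 0.00985). The first of these p-values lies just under the threshold, and its adjustment includes the H3K27ac and LDB1 contrasts that partly restate the rule. Restricted to 5 kb anchors, the differences from CTCF-cohesin loops no longer passed for boundaries or corners (adjusted exact p = 0.06 for each). Corners against CTCF-cohesin loops also did not pass with 10 kb anchors (adjusted exact p = 0.151). Against doubly paired loops, corners did not pass with 10 kb anchors (adjusted exact p = 0.76), the second antibody (0.235) and further settings given below. Boundaries against them did not pass with 5 kb anchors, 10 kb anchors or the second antibody (adjusted exact p = 0.0594, 0.0645 and 0.151). At 1 anchor or more a boundary lay in 10.5% of unpaired and 17.2% of CTCF-cohesin loops, and 28.9% and 32.5% had one inside.

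Auxin left acetylation and LDB1 at the unpaired loops largely in place. H3K27ac lay at both anchors of 238 loops before and 262 after auxin, 220 of them in both lists, and at 1 anchor or more of 1007 and 1069. LDB1 lay at both anchors of 58 and 55 loops, and at 1 anchor or more of 563 and 556, of which 487 were the same loops. CTCF at both anchors went from 548 to 650 loops and RAD21 from 211 to 508. In YY1-paired loops the same counts went from 299 to 473 and from 463 to 756. The auxin lists of CTCF and RAD21 were longer over the whole genome (64548 and 50028 peaks), and without replicate lists these counts have no test. Had the auxin CTCF and RAD21 lists been used, 255 unpaired loops (6.42%) would have had the pair at both anchors, 207 of them through new RAD21 and 71 through new CTCF. Loops chosen for lacking the pair in the untreated lists could only gain it. With the auxin lists 3769 loops were unpaired in all, of which 3719 were also unpaired with the untreated lists, so some paired loops moved the other way. Of the 255, 26.3% recurred in mid-G1 (21.3 to 32.0).

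Peaks at anchors used by unpaired loops only were kept slightly less often after auxin than peaks at anchors used by paired loops only. For LDB1, 372 of 443 peaks (84.0%, 80.3 to 87.1) overlapped an auxin peak, against 2300 of 2621 (87.8%, odds ratio 0.731, two-sided Fisher's exact p = 0.0312 over peaks, the same after adjustment over both factors). For H3K27ac, 680 of 737 were kept (92.3%, 90.1 to 94.0), against 4506 of 4726 (95.3%, odds ratio 0.582, adjusted exact p = 0.00157). The acetylated peaks also differed in width, with medians of 1505 and 2024 bp. With every H3K27ac peak reduced to 200 bp around its midpoint, the direction turned and the test was not passed (69.7% against 67.2%, adjusted exact p = 0.19). Peaks away from all loop anchors were kept in 87.1% for LDB1 and 90.6% for H3K27ac.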

How the data were processed

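Peak, loop, boundary and domain lists were used as the authors deposited them, as positions in mm9 without a score, 1 list per condition. The submitters' processing notes list the tools Bowtie2, MACS2 2.2.7 and deepTools 3.5.1. Not given in the sources used here are the peak threshold, how libraries were combined and which callers made the other lists.

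The loops and comparisons were chosen with earlier results of these data known. Overlaps of at least 1 bp, Wilson and Newcombe 95% intervals and two-sided Fisher's exact tests across loops or peaks were computed in Python 3.11.15 with SciPy 1.17.1, and checked on simulated data. P-values of 7 measures against 3 classes (21 tests) were adjusted by Benjamini-Hochberg, with a threshold of 0.05. The 21 include the H3K27ac and LDB1 contrasts with both classes with paired YY1, which partly restate the rule. Their small p-values lower the other adjusted p-values, which matters for those just under 0.05. The adjustment without them was not run. Span was compared by permutation. Alternatives changed the overlap, the anchors, the pair, the antibody, the span and the match to mid-G1.

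Loops named are the 2 longest, the 2 shortest, up to 6 with LDB1 and H3K27ac at both anchors that recur in mid-G1, the 3 most used anchors and the 2 longest without a peak. The dense windows and the groups by distance, density and contents were chosen after seeing the values. RNA-seq and TT-seq were not used, since genes could not be placed on mm9 anchors.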

Additional observations from a re-analysis of the deposited data

How the results depend on the processing

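No paired analysis was possible because each list combines its libraries, and for the same reason leaving out a library was not possible. The alternatives on RNA were not run, for want of gene positions in mm9. Over 15 settings, 252 recomputed values were compared with the reported ones: 197 kept their direction and their side of the threshold, 18 were weaker, 8 stronger, 24 changed direction and 5 counts moved by over 1.5 times. The differences in recurrence from doubly paired and CTCF-cohesin loops kept direction and side in every setting run, but not size. Those in H3K27ac and LDB1 from both classes with paired YY1 kept their direction. They partly restate the rule, so no p is given. All are among the 197, which thus overstate how far other values held. Recurrence against doubly paired and CTCF-cohesin loops ranged from −28.0 to −2.92 and from −31.0 to −8.45, being −2.92 and −8.45 with widened anchors, −6.09 and −11.4 with no YY1 and no pair, and −6.94 and −12.6 with midpoints within 20 kb. Where a value changed, the cause was not tested. Settings with 10 kb anchors only, without dense windows and without peak-free loops were added after seeing the data. Differences below are unpaired minus the named class, in percentage points, or in log10 units for span.

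The number of unpaired loops was 1871 with anchors widened by 5 kb, 2535 and 1439 with 5 kb and 10 kb anchors only, 1361 with no YY1 and no pair at either anchor, and 2379 for spans of 100 to 500 kb. Recurrence against YY1-paired loops was 9.31 with widened anchors, 12.2 with no YY1 and no pair, 1.39 with 5 kb anchors, 0.72 with identical anchors, 5.58 with midpoints within 20 kb, −6.14 with 10 kb anchors, −6.02 with the second antibody and −6.16 without peak-free loops. H3K27ac at both anchors against CTCF-cohesin loops was −0.9995 with widened anchors and −2.96 with no YY1 and no pair. It kept its direction but moved to 0.86 with 50% of a peak inside, 1.17 with anchors set to 10 kb, 4.22 without peak-free loops and 8.63 with the second antibody. LDB1 at both anchors against CTCF-cohesin loops was 0.46 with 50% of a peak inside, −0.75 widened, 0.49 with overlapping CTCF and RAD21 peaks, 1.95 with the second antibody, −0.99 with no YY1 and no pair, 0.57 without dense windows and 0.99 without peak-free loops. Unlike the reported value, it passed the threshold with 50% of a peak inside, overlapping CTCF and RAD21 peaks and the second antibody (adjusted exact p from 0.0473 down to 4.68e-07). The widened value did not pass. No p is given without dense windows, which were chosen by their peak-free loops, or without peak-free loops, which hold no LDB1 by definition. The same holds with no YY1 and no pair, which leaves out YY1 anchors on 1 side only. LDB1 at 1 anchor or more was 0.62 with the second antibody and 2.13 without peak-free loops.

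Span against CTCF-cohesin loops was 0.034 widened, 0.042 with anchors set to 10 kb, −0.0089 with 5 kb anchors and 0.035 with no YY1 and no pair. Span against YY1-paired loops was −0.021 with 10 kb anchors and 0.028 with the second antibody, and against doubly paired loops −0.0022 with 10 kb anchors and 0.0086 for 100 to 500 kb. None of these differences from YY1-paired and doubly paired loops passed the threshold.

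Boundaries at both anchors against YY1-paired loops were −0.29 with anchors set to 10 kb, −0.032 with 10 kb anchors only, −0.22 with the second antibody and −0.40 with no YY1 and no pair. Against doubly paired loops they were −0.74, −0.79 and −0.69 with 5 kb anchors, 10 kb anchors and the second antibody, and against CTCF-cohesin loops −0.48 with 5 kb anchors. Domain corners against YY1-paired loops were −0.15 with anchors set to 10 kb, −0.13 with the second antibody and −0.27 with no YY1 and no pair. Against doubly paired loops they were −0.096 with 10 kb anchors, −0.37 with overlapping CTCF and RAD21 peaks, −0.45 with the second antibody, −0.42 without dense windows, −0.33 without peak-free loops and −0.58 for 100 to 500 kb. Against CTCF-cohesin loops they were −0.40 with 5 kb anchors, −0.39 with 10 kb anchors, −0.24 with overlapping CTCF and RAD21 peaks and −0.30 without peak-free loops. With peaks set to 200 bp, the kept share differed by 2.50 for H3K27ac and by −3.78 for LDB1, the latter as reported but with an adjusted p of 0.0624, because the adjustment includes H3K27ac.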
